A study of Mus musculus with 6 samples.

Results

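The antigen receptor loci are the parts of the genome in which B cells and T cells assemble the genes of their immunoglobulins and T cell receptors. In ESCs, 3 histone marks were compared over 5 of these loci, which were chosen by position alone on mouse build NCBIM37. Igk, the kappa light chain locus, was taken as chr6:67500001-70700000, and Igh, the heavy chain locus, as chr12:114400001-117300000. Igl, the lambda light chain locus, was taken as chr16:19000001-19300000. The T cell receptor loci were Tcrb at chr6:40800001-41550000 and Tcra/d, which holds the alpha and delta chains, at chr14:53000001-55000000. The loci hold 4575 of the 1327469 tiles of 2 kb in the deposited table, with 1600 tiles in Igk, 1450 in Igh, 375 in Tcrb, 1000 in Tcra/d and 150 in Igl. The flanks are the 1 Mb on each side of each locus, 5000 tiles in all.

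The marks H3K9me2, H3K27me3 and H3K9me3 come from ChIP-seq of mouse ESCs grown in serum with LIF, in 2 genotypes with 1 library per mark and genotype, which makes 6 libraries and no replicates among them. The series design text mentions 2 biological replicates for some ChIP-seq samples without saying which, and the labels show none for these. The genotypes are Dicer KO (Dicer -/- in the labels) and Dicer KO/Dnmt1 cKO (Dicer/Dnmt1 -/-), so both lack Dicer, the enzyme that makes small RNAs, and the comparison asks what the loss of Dnmt1, which maintains DNA methylation, adds in such cells. The labels give the strain as E14, while the methods derive the cells from C57BL/6 ESCs with Dnmt1 loxP/loxP alleles. The Dicer KO line was made by CRISPR in that background, with a screen of colonies grown from single cells. Dnmt1 was deleted by a Cre induced with 4OHT, at a time before harvest that the labels do not give. No library of wild type cells or of input DNA is among the 6.

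Depth was 16834940 reads in Dicer KO and 20503709 in Dicer KO/Dnmt1 cKO (H3K9me2), 27162045 and 21280804 (H3K27me3), and 18155478 and 18931477 (H3K9me3), and all paired values are given in this order of genotypes. Of these reads the loci held 53052 and 62392 (H3K9me2), 79650 and 60243 (H3K27me3), and 58578 and 57372 (H3K9me3). The median tile of the loci had 12 to 16 reads per library, so most values are sums over many tiles. A level is the number of reads per tile over the mean of the genome in the same library. Ranges in brackets are 95% intervals, which cover counting error only, with each read taken as independent. PCR copies are not independent molecules, so where such copies remain the intervals are too narrow. The spread between libraries is not covered.

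Developing lymphocytes join V, D and J gene segments at recombination signals, each a heptamer and a nonamer set apart by a short or a long spacer, and B cells later switch the constant gene of Igh at G-rich repeats that lie before it. Both steps are closed to most other cells, in which the loci stay unrearranged. H3K27me3 is laid down by Polycomb proteins at silent developmental genes, H3K9me2 covers broad silent domains, and H3K9me3 marks silenced repeats and gene clusters.

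The recombination signals are printed here because they are the sequence at which V and J segments are joined. The lines hold 5 signals that follow V segments (Igkv2-137, Ighv2-9, Trbv1, Trav3-1 and Iglv1) and 2 that precede J segments (Igkj1 and Traj34), read 5′ to 3′ on the gene's strand of NCBIM37, with heptamer and nonamer in capitals.
Igkv2-137, chr6:67506211-67506238, plus strand: CACAGTGatacagccctgaACAAAAACC
Ighv2-9, chr12:115117268-115117306, minus strand: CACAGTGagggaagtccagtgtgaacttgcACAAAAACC
Trbv1, chr6:40841885-40841923, plus strand: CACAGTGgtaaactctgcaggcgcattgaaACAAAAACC
Trav3-1, chr14:53200889-53200927, plus strand: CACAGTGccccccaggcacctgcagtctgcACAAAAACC
Iglv1, chr16:19085071-19085109, minus strand: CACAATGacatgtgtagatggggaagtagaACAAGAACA
Igkj1, chr6:70672517-70672555, plus strand: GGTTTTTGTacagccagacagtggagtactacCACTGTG
Traj34, chr14:54804346-54804373, plus strand: GGTTTTTGTagaacatgatatCACTGTG
The exact heptamer CACAGTG stood directly after 190 of 336 V segments (56.5%), and after 1 of 3450 other protein-coding genes of the same chromosomes (0.0290%). Its first bases CAC followed 248 V segments (73.8%) and 36 of the other genes (1.04%). A nonamer with at least 7 of 9 bases of ACAAAAACC lay after a spacer of 12 bases at 81 of 95 Igk V segments (85.3%) and after a spacer of 23 bases at none of them. At Igh the spacer was the long kind, with 30 of 107 V segments (28.0%) after 23 bases and 0 after 12. Tcrb (7 of 21) and Tcra/d (29 of 110) V segments also carried it after 23 bases, and Igl V segments too (2 of 3), none of which had the exact heptamer. Before J segments the exact heptamer stood in 20 of 84 (23.8%). Its first bases CAC, read outward from the segment, stood before 71 of them (84.5%) and before 42 of the other genes (1.22%). Such a nonamer match lay at a spacer of 12 bases in Tcra/d (37 of 61) and Tcrb (6 of 14) and at a spacer of 23 in Igk (3 of 5). The 4 Igh J segments had neither an exact heptamer nor a nonamer match at either spacer, though 3 of them had CAC. Spacers of other lengths were not searched. Of the other genes, 0.232% had a match at 12 bases and 0.203% at 23 after their end, and 0% and 0.116% before their start.

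The octamer ATGCAAAT, a promoter element of immunoglobulin genes that octamer-binding factors recognise, sets the immunoglobulin V segments apart from those of the T cell receptors. The lines show 60 bases before Igkv3-1 and Ighv5-2 with the octamer in capitals, on the gene's strand (ATTTGCAT is the same word on the other strand).
Igkv3-1, chr6:70653458-70653517, plus strand: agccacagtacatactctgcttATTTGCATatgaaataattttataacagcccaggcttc
Ighv5-2, chr12:114817295-114817354, minus strand: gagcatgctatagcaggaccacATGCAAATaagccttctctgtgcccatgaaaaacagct
On either strand, the octamer lay in the 250 bases before 58 of 95 Igk V segments (61.1%), 83 of 107 Igh V segments (77.6%) and 3 of 3 Igl V segments. It lay before 0 of 21 Tcrb and 1 of 110 Tcra/d V segments (0.909%), and before 60 of 3450 other genes of the same chromosomes (1.74%).

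The repeats of class switching are built on the word AGCT, the preferred target of the deaminase that starts the switch. The lines show 90 bases on the minus strand, the strand of the genes, from repeats before Ighm, AI324046 and Ighe and from a repeat beyond Ighe next to which the annotation lists no constant gene, with AGCT in capitals.
Ighm, chr12:114662958-114663047, minus strand: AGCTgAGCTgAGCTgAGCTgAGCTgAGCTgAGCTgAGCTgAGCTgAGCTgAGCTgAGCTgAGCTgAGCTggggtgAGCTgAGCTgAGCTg
AI324046, chr12:114601831-114601920, minus strand: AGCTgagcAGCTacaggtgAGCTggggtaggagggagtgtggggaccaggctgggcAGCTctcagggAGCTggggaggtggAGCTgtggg
Ighe, chr12:114513445-114513534, minus strand: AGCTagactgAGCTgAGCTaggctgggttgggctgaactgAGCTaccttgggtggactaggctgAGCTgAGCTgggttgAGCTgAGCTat
beyond Ighe, chr12:114500566-114500655, minus strand: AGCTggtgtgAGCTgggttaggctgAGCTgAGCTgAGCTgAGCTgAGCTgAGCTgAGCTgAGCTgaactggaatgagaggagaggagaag
A tile with at least 30 copies of AGCT is called switch-type here, a threshold chosen after the values were seen. Of 310 such tiles in the genome (median of all tiles 9 copies), 14 lay in the loci, all of them in Igh in 7 runs within chr12:114500001-114664000. The tile next to Ighm held 191 copies.

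The loci hold much repeated sequence, the source of which was not tested, and reads of low mapping quality were discarded. How far this sets the levels was not tested, and the measure used here, unique 32-base words, follows neither the read length nor the mapping settings of the study. On average 59.0% of the 32-base words in a tile of the loci occurred once in the genome, against 85.0% in the flanks and 83.6% in the genome. Unique tiles, with at least 90% such words, made up 1025 of the 4575 tiles (22.4%), from 15.1% in Igk to 47.2% in Tcrb. GC content was 39.9% in the loci and 44.0% in the flanks, and CpG density 5.84 and 9.72 per kb. In all 6 libraries 143 tiles had no read (3.13%), against 5.23% of the genome's tiles, a genome in which 3.63% of bases are unknown (N). Of the 143, 107 lay in Tcra/d (10.7% of its tiles), where 27.1% of tiles had under 10% unique words. Tiles of 10 to 50% unique words differed from the genome by mark. Their H3K9me3 level was 0.790 and 0.734 in the loci, and 1.54 and 1.51 for such tiles of the genome. Their H3K9me2 level (0.632 and 0.609) and H3K27me3 level (0.615 and 0.598) were nearer to the genome's 0.716 and 0.670 and 0.651 and 0.669.

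Over all tiles, the 5 loci together lay below the genome mean for each mark, with H3K27me3 the lowest. H3K9me2 was at 0.914 (0.907 to 0.922) and 0.883 (0.876 to 0.890), H3K27me3 at 0.851 (0.845 to 0.857) and 0.821 (0.815 to 0.828), and H3K9me3 at 0.936 (0.929 to 0.944) and 0.879 (0.872 to 0.887). In unique tiles, scaled to the genome's unique tiles, the same loci stood at or above the mean, at 1.13 and 1.11, 1.03 and 1.00, and 1.12 and 1.06 in the same order of marks. The level below the mean over all tiles therefore did not hold in unique tiles.

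Tcra/d had the lowest level of every mark over all tiles, from 0.622 to 0.661. In its unique tiles the levels were 1.00 to 1.06, close to the genome. Its 100 kb from chr14:53500001-53600000 held H3K9me2 at 0.00946 and 0.0129, and 0.909% of the words there were unique. Igk stood apart in H3K27me3, at 0.754 (0.745 to 0.764) and 0.746 (0.735 to 0.757), while its H3K9me2 was 0.927 and 0.885 and its H3K9me3 0.961 and 0.915. In its unique tiles H3K27me3 was again the lowest mark, at 0.855 and 0.849, with H3K9me2 at 1.15 and 1.10 and H3K9me3 at 1.06 and 1.01. Igh and Tcrb lay within 0.931 to 1.05 for all marks in both genotypes. Igl, the smallest locus, had the highest levels of H3K27me3 and H3K9me3, at 1.13 and 0.998 and at 1.18 and 1.03, over all tiles. In unique tiles Igh was highest for both marks, at 1.18 and 1.11 and at 1.26 and 1.18.

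**Figure D1:**
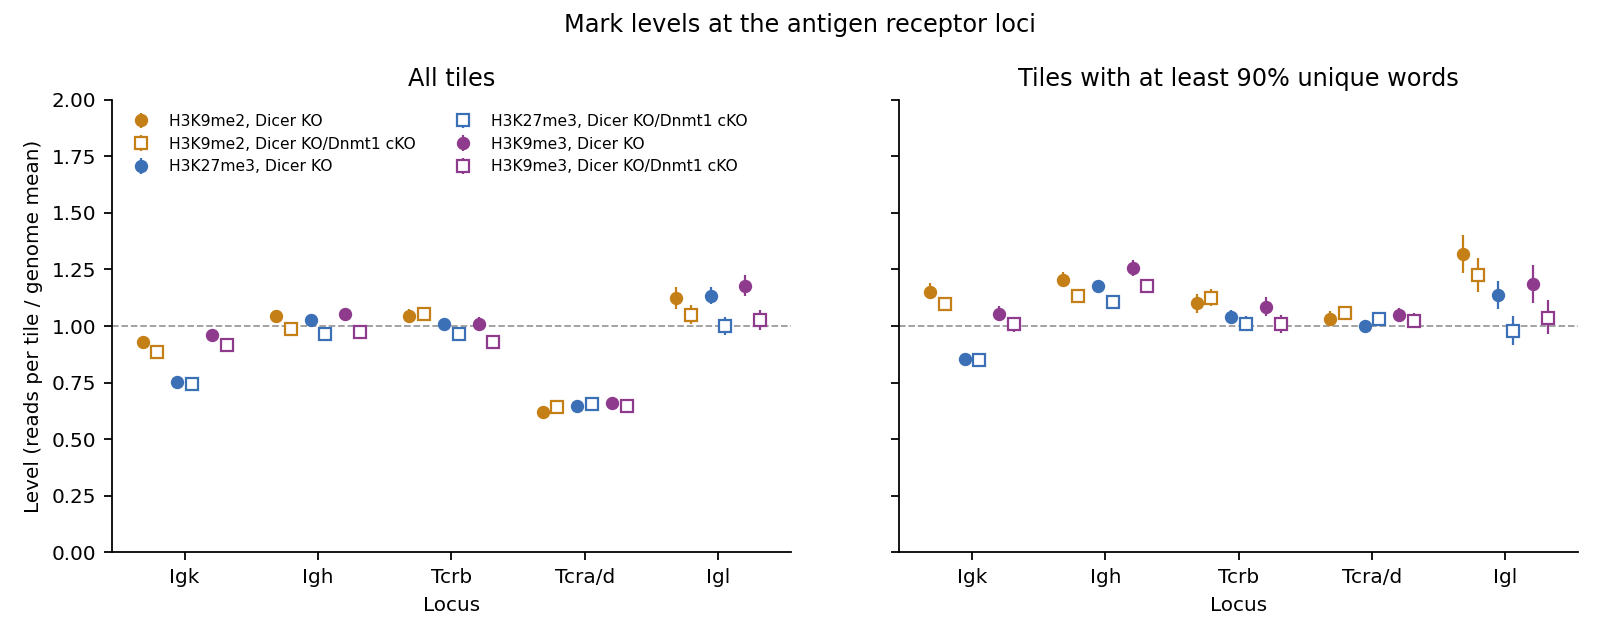
Level of each mark (reads per tile over the genome mean) at the 5 loci in Dicer KO (filled) and Dicer KO/Dnmt1 cKO (open) cells, over all tiles and over unique tiles, with 95% counting intervals. Tcra/d is lowest over all tiles (0.622 to 0.661) but near 1 in unique tiles, while Igk is the lowest for H3K27me3 in unique tiles (0.855 and 0.849).

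Without an input library, each mark was also set against the other 2 marks of the same genotype, which share its mappability and copy number. This relative level is the mark's share of reads over the mean share of the other two. Over the loci together H3K9me2 had 1.02 and 1.04, H3K27me3 0.920 and 0.932, and H3K9me3 1.06 and 1.03. Igk held both extremes, with H3K27me3 at 0.799 (0.786 to 0.812) and 0.829 (0.815 to 0.843), and H3K9me3 at 1.14 (1.12 to 1.16) and 1.12 (1.10 to 1.14). The unique tiles of Igk kept H3K27me3 low, at 0.775 and 0.807, whereas there H3K9me2, at 1.21 and 1.18, exceeded H3K9me3, at 1.05 and 1.03.

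Over all tiles, H3K27me3 was lower in the loci than in their flanks, and by more than the other marks. For the 5 loci together the log2 ratio of reads per tile, locus over flanks, was -0.45 (-0.47 to -0.44) and -0.46 (-0.48 to -0.45). It was below 0 at each of the 5 loci in both genotypes, from -0.13 at Igl to -0.61 at Tcra/d. Igl was below its 2 flanks together but, per tile, above the flank after it in both genotypes. Its 150 tiles held 3480 and 2400 reads, and the 500 tiles of that flank 9795 and 7492. In unique tiles the ratio of the 5 loci together shrank to -0.12 (-0.14 to -0.10) and -0.10 (-0.13 to -0.08). This was smaller than the differences of the H3K9 marks given below, and at Tcra/d the ratio turned to 0.03 and 0.06. At Igh it also depended on the flanks, since 500 kb flanks gave 0.17 and 0.06 in place of -0.43 and -0.50.

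The H3K9 marks changed direction with the tiles used and with the length of the flanks. H3K9me2 stood at -0.14 (-0.16 to -0.12) and -0.24 (-0.25 to -0.22), and H3K9me3 at -0.02 (-0.03 to -0.00) and -0.11 (-0.13 to -0.10), for all loci over all tiles. In unique tiles both turned, H3K9me2 to 0.26 and 0.18 and H3K9me3 to 0.26 and 0.17. With 500 kb flanks, over all tiles, H3K9me2 of the 5 loci came to -0.02 (-0.04 to 0.00) and -0.13, and H3K9me3 to 0.05 and -0.04, and Igh H3K9me2 turned to 0.22 and 0.10. Igl was above its flanks over all tiles and in unique tiles, with H3K9me2 at 0.28 and 0.11 over all tiles and 0.59 and 0.41 in unique tiles, and H3K9me3 at 0.28 and 0.10 and then 0.39 and 0.22. Tcrb was below its flanks for H3K9me2 in both, at -0.28 and -0.23 over all tiles and at -0.15 and -0.08 in unique tiles.

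**Figure D2:**
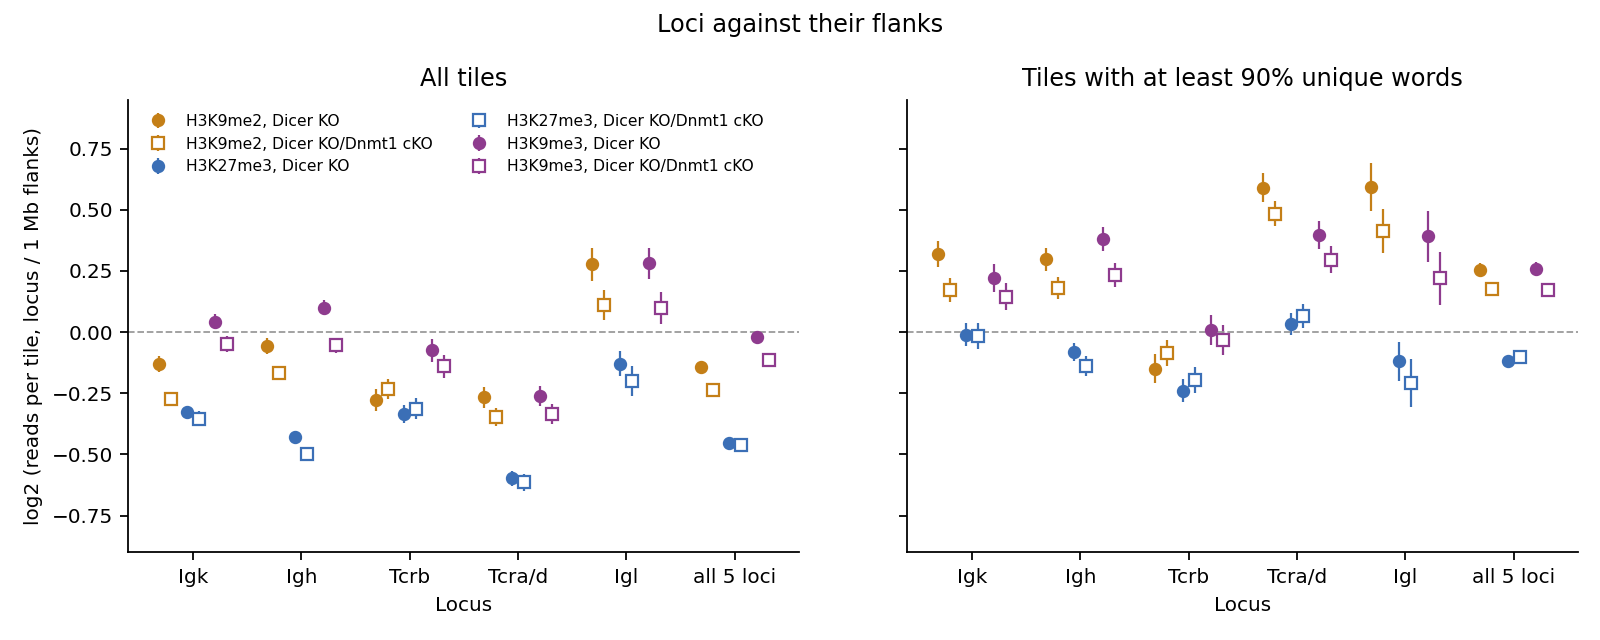
Log2 ratio of reads per tile in each locus over its 1 Mb flanks, by mark and genotype, over all tiles and over unique tiles, with 95% counting intervals. H3K27me3 lies below 0 at every locus over all tiles, and in unique tiles H3K9me2 and H3K9me3 lie above 0 at each locus but Tcrb.

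The flanks carried H3K27me3 unevenly. The flank before Igh reached a level of 1.58 and 1.57, with a GC content of 52.1%, and the flank before Igl 1.52 and 1.36. The flank after Tcra/d stood at 1.22 and 1.25. The flank before Igk, at 0.815 and 0.833, was close to Igk itself.

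In windows of 100 kb, few parts of the loci left the range of the genome. Of 91 windows, 86 had at least 200 reads in each library, and 24886 windows of the genome did. A relative level under the genome's 5th or over its 95th percentile in both genotypes was found in 1 of the 86, the Igk window chr6:70000001-70100000, low in H3K27me3 with a relative level of 0.486 and 0.525 (level 0.458 and 0.482) and named after its values were seen. In the genome 3.69% of windows were low and 3.27% high in H3K9me2 by this rule, 4.12% and 4.41% in H3K27me3, and 3.86% and 3.85% in H3K9me3. The lowest H3K27me3 level of Igk lay in another window, chr6:69300001-69400000, at 0.405 and 0.445, with a relative level of 0.499 and 0.541. The highest Igk H3K9me3 lay at chr6:67600001-67700000, at 1.26 and 1.31. Igh had its peak of all 3 marks in the same window, chr12:114500001-114600000, which holds most of its constant genes. There H3K27me3 was 2.22 and 1.92, H3K9me2 1.54 and 1.45, and H3K9me3 1.47 and 1.48. Its relative levels were 1.48 and 1.31 (H3K27me3), 0.834 and 0.854 (H3K9me2), and 0.782 and 0.877 (H3K9me3), so only H3K27me3 was above 1. The window had 82.1% unique words and a GC content of 49.2%, beside 62.0% and 40.2% for Igh. How far these set its levels was not tested. In Tcrb the H3K27me3 peak was chr6:41000001-41100000, at 1.48 and 1.36, and in Tcra/d it was chr14:54600001-54700000, at 1.28 and 1.30.

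**Figure D3:**
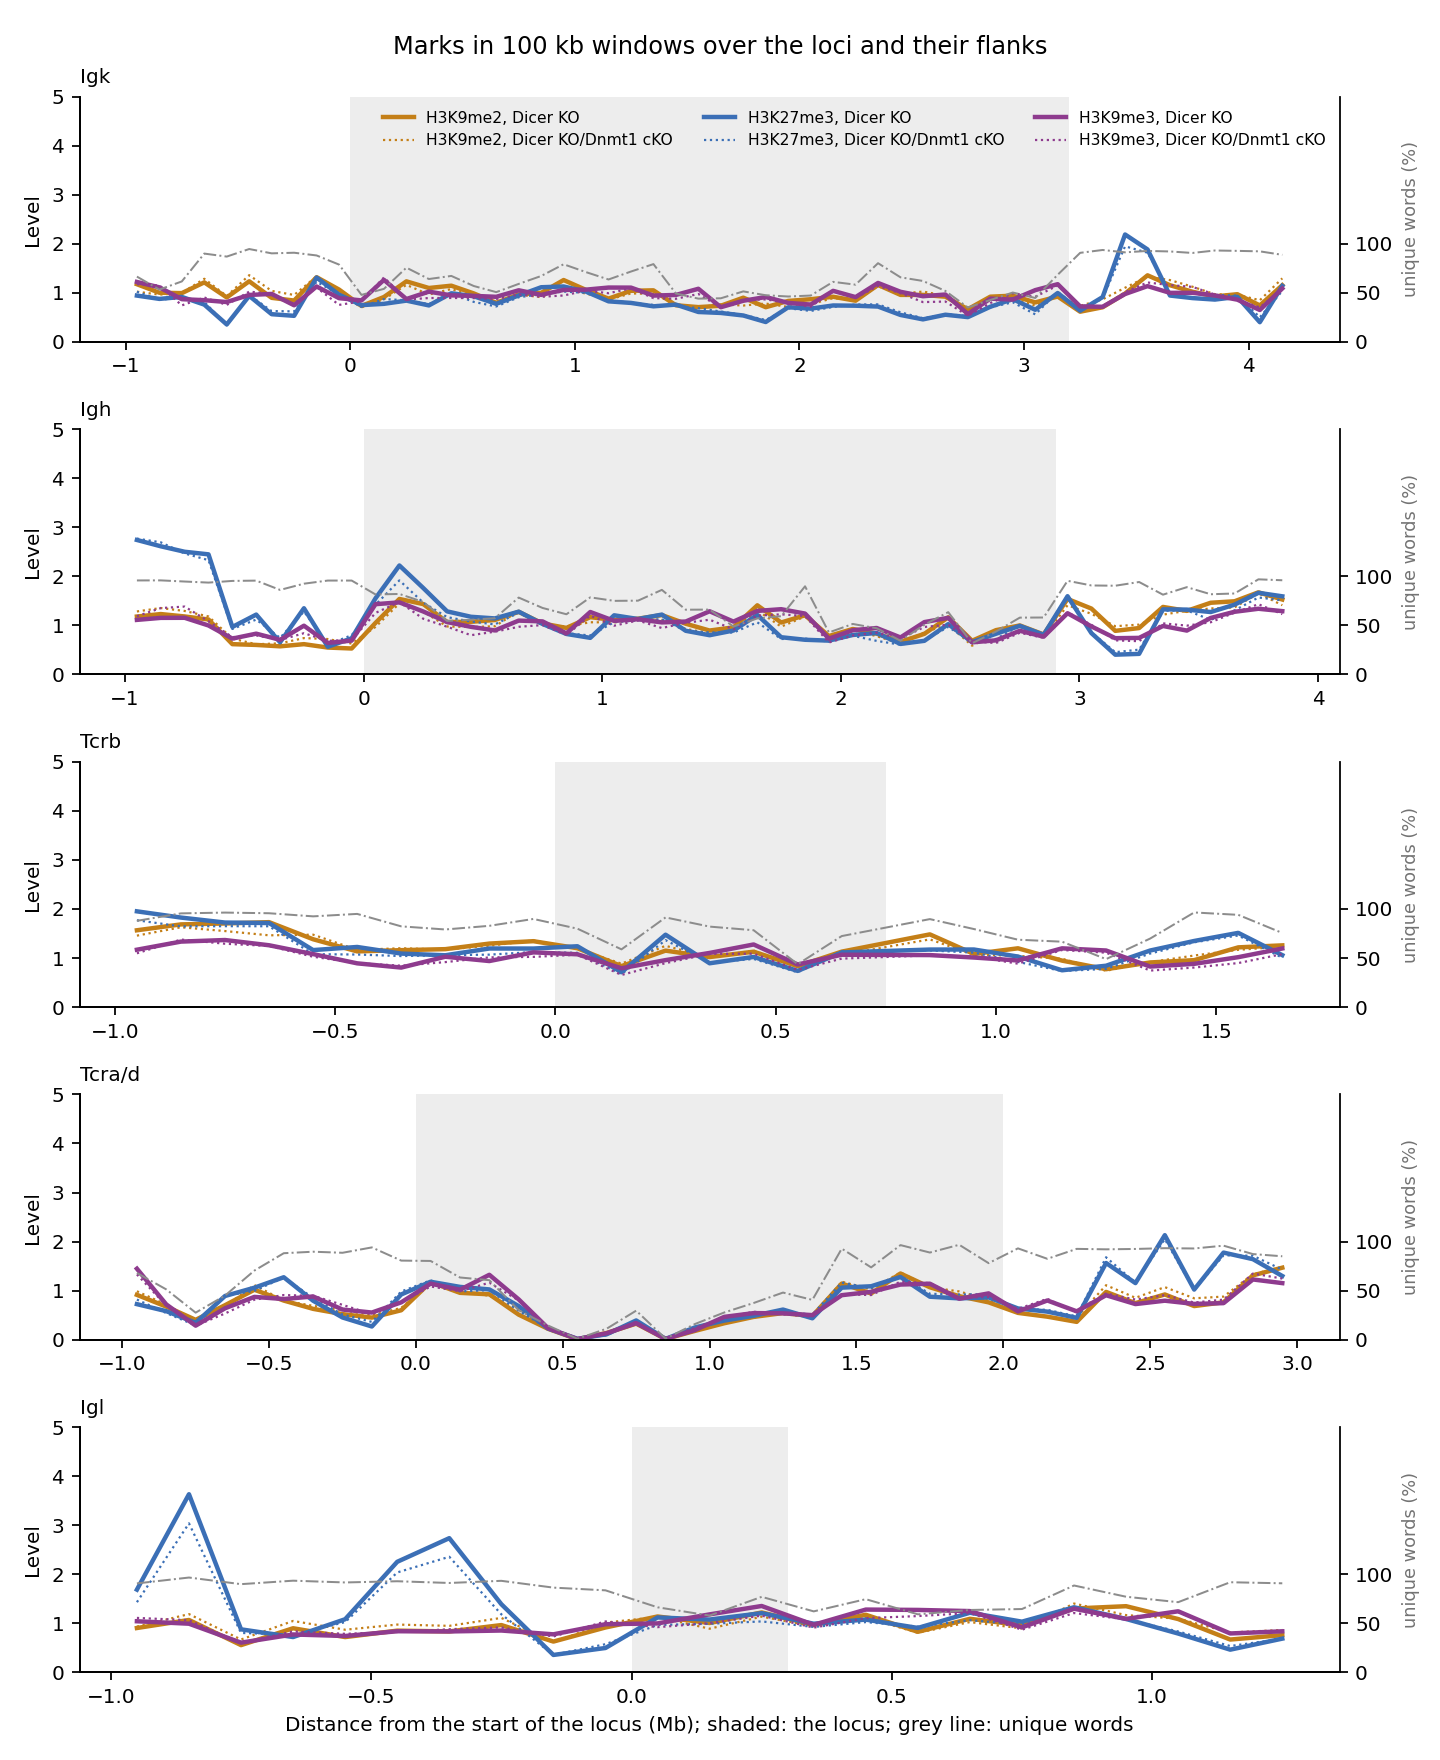
Level of each mark in 100 kb windows over each locus (shaded) and its flanks against distance from the locus start in Mb, for Dicer KO (solid) and Dicer KO/Dnmt1 cKO (dotted), with the percentage of unique words in grey. The 2 genotypes follow each other closely, and the H3K27me3 peak of Igh (2.22 and 1.92) lies at its constant genes.

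The annotation lists 479 gene segments in the loci, of which 336 are V segments, 22 V pseudogenes, 25 D, 84 J and 12 constant genes. It lists no Igha, Ighd or Iglj gene, so these are in no count or level below. At Tcra/d the only constant gene listed is Trac, with none for the delta chain. With the loci pooled, over all tiles, levels increased in the order V segments, J segments, constant genes. For H3K27me3 in Dicer KO/Dnmt1 cKO the intervals of J segments and constant genes overlapped. H3K27me3 was 0.784 (0.765 to 0.803) and 0.752 (0.731 to 0.773) at V segments, 1.65 (1.56 to 1.74) and 1.68 (1.58 to 1.78) at J segments, and 1.88 (1.76 to 2.01) and 1.73 (1.60 to 1.87) at constant genes. H3K9me2 followed the same order, at 0.843 and 0.809, then 1.28 and 1.30, then 1.77 and 1.60. H3K9me3 did so with a smaller step from V to J segments, at 0.744 and 0.722, then 1.09 and 1.13, then 1.46 and 1.48. In unique tiles V segments reached 1.06 and 1.01 for H3K27me3, still below J segments at 1.40 and 1.42 and constant genes at 1.55 and 1.40. Constant genes were thus not above J segments there in Dicer KO/Dnmt1 cKO. The H3K9 marks of V and J segments nearly met there, at 1.10 and 1.07 against 1.11 and 1.14 for H3K9me2 and at 1.06 and 1.03 against 1.06 and 1.09 for H3K9me3. V segments were below J segments for H3K27me3 in each of the 4 loci with annotated J segments, in both genotypes. Constant genes were above J segments for H3K27me3 only at Igk, a locus with 1 tile of each, and below them at Igh, Tcrb and Tcra/d, with overlapping intervals at Igk and Igh, so their place in the pooled order does not describe single loci. D segments, at 1.20 and 1.03 for H3K27me3, lay between V and J over all tiles, but their 4 unique tiles were lower, at 0.826 and 0.806.

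J segments, the short exons that V segments join, held H3K27me3 above the genome mean in Igh, Tcrb and Tcra/d. At Igh they stood at 3.01 (2.50 to 3.59) and 2.37 (1.87 to 2.97) in 2 tiles, at Tcrb at 2.30 (1.93 to 2.71) and 2.29 (1.88 to 2.76) in 3 tiles, and in the 34 tiles of Tcra/d at 1.52 (1.43 to 1.61) and 1.58 (1.47 to 1.68). H3K9me3 at the same J segments was 1.86 and 1.44, 0.926 and 1.43, and 1.07 and 1.09. Among the segments picked within each locus for their relative level of H3K27me3 were, in Tcra/d, Traj41 and Traj42, in a tile shared with Traj43 at 2.10 and 1.62 (relative level 2.67 over both genotypes), and in Igk, Igkj1 and Igkj2, in a tile shared with the other J segments of Igk at 1.47 and 2.00 (1.80). In Tcrb they were the pseudogene Trbv10, at 1.73 and 1.75 (2.47), and Trbd2, a D segment in the tile of the Trbj2 cluster, at 2.88 and 2.31 (2.43). The pick was made among the 119 segments with at least 60 H3K27me3 reads over both libraries, a minimum that a segment of 1 tile meets only above the genome mean.

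The constant genes, which encode the part of the chain that fixes its class, ranged widely in H3K27me3. Over the Igh constant genes H3K27me3 was 2.47 (2.28 to 2.67) and 2.26 (2.07 to 2.48). Ighg2c carried 2.88 and 2.83, Ighg 3.27 and 2.46, AI324046 2.59 and 2.37, Ighe 2.15 and 2.25, and Ighg1 2.05 and 1.81. Ighm, the first class that a B cell makes, was lowest at 1.66 and 1.59 and had more H3K9me3, at 2.05 and 2.21. Igkc, the kappa constant gene, carried H3K27me3 at 2.05 (1.48 to 2.77) and 2.18 (1.52 to 3.04). Iglc3 had 1.17 (0.865 to 1.56) and 1.22 (0.865 to 1.66), and Iglc2 1.83 (1.44 to 2.30) and 1.03 (0.708 to 1.45). Trac, the alpha chain's constant gene, was below the genome mean of H3K27me3 with 8 and 12 reads, at 0.195 (0.0844 to 0.385) and 0.374 (0.193 to 0.654), while its H3K9me2 was 1.34 and 1.39 and its H3K9me3 1.35 and 1.02. Trbc2 had H3K27me3 at 0.611 (0.395 to 0.902) and 0.936 (0.631 to 1.34), with H3K9me2 at 1.70 and 1.33, and Trbc1 at 1.42 (0.949 to 2.04) and 0.998 (0.570 to 1.62). Of these 12 genes, the 6 of Igh and Igkc thus had intervals above the genome mean of H3K27me3 in both genotypes, Trac had both below it, and Iglc3, Iglc2, Trbc1 and Trbc2 had at least 1 across it. Relative to the other marks, over both genotypes, 6 of the 12 were above 1, namely Ighe (1.16), Ighg2c (1.88), Ighg (1.81), AI324046 (1.45), Igkc (1.54) and Iglc2 (1.01). The others lay between 0.223 (Trac) and 0.973 (Ighg1). No share of all genes is given for these 2 rules, so the counts describe the 12 genes only.

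Among the segments with enough reads, a few had high relative levels of the H3K9 marks. Igkv1-35 had H3K9me3 at 2.19 and 2.45 with a relative level of 3.30, and its H3K27me3 was 0.244 and 0.499. Ighv8-11 had H3K9me3 at 2.27 and 2.17 (relative level 2.87) and the pseudogene Ighv1-13 at 2.92 and 1.89 (3.21). For H3K9me2, Igkv9-129 (1.50 and 1.04) and Igkv1-132 (1.18 and 1.68) led in Igk, each with a relative level of 1.67, and Ighv1-23 (2.76 and 1.81, relative level 1.60) and Ighv1-64 (1.42 and 1.17) in Igh. Trdj1, a delta chain J segment, had H3K9me2 at 2.29 and 2.07, and Trbv16, a Tcrb V segment, at 1.42 and 1.75. Each of these segments lies in 1 or 2 tiles, and they were picked for high relative levels, so the values are a description. The pick was made among the 42 (H3K9me2) and 27 (H3K9me3) segments with at least 60 reads of the mark over both libraries. A segment of 1 tile meets this minimum only at a level well above the genome mean, so its high level follows from the rule.

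The stretch of Igh that holds the constant genes and their switch repeats, chr12:114500001-114664000, was read tile by tile after its peak was seen. Its 14 switch-type tiles carried H3K27me3 at 2.58 (2.40 to 2.78) and 2.16 (1.97 to 2.36), and its other 68 tiles 2.01 (1.94 to 2.09) and 1.70 (1.63 to 1.78). H3K9me2 was lower at the switch-type tiles together, with 1.20 (1.04 to 1.37) and 1.05 (0.913 to 1.19), than at the others, with 1.61 (1.52 to 1.69) and 1.50 (1.42 to 1.57), but not at all of them, as given below. The 296 switch-type tiles outside the loci had 1.20 and 1.15 for H3K27me3 and 0.748 and 0.788 for H3K9me2. A few tiles carry the H3K27me3 value, since its median tile was at 0.782 and 0.749 and its highest at 53.0 and 48.6.

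The switch-type tiles were grouped after their H3K9me3 was seen, so the difference in that mark between the groups is a description. The 4 tiles next to Ighe and beyond it had H3K9me3 at 3.13 and 3.42 together, from 2.27 to 3.73 by tile in Dicer KO and from 3.23 to 3.72 in Dicer KO/Dnmt1 cKO, with H3K27me3 at 2.09 and 2.25. The other 10, next to Ighg2c, Ighg, Ighg1, AI324046 and Ighm, had H3K9me3 at 1.00 and 0.933 together, from 0.512 to 1.54 and from 0.0701 to 1.68 by tile, with H3K27me3 at 2.78 and 2.13. The groups also differ in sequence, with 95.5% unique words in the 4 tiles and 67.9% in the 10. H3K9me2 was 1.64 and 1.41 in the 4 tiles, close to the 68 other tiles of the stretch, and lower in the 10, with intervals of 0.856 to 1.22 and 0.757 to 1.06. The Ighm tile, with the most copies of AGCT, was among the 10, with H3K9me3 at 1.54 and 0.841 and H3K27me3 at 3.47 and 2.12. The highest H3K27me3 of the 14 was in a tile next to AI324046 in Dicer KO (4.11 and 2.62), and in a tile next to Ighg2c in Dicer KO/Dnmt1 cKO (3.37 and 2.87).

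**Figure D4:**
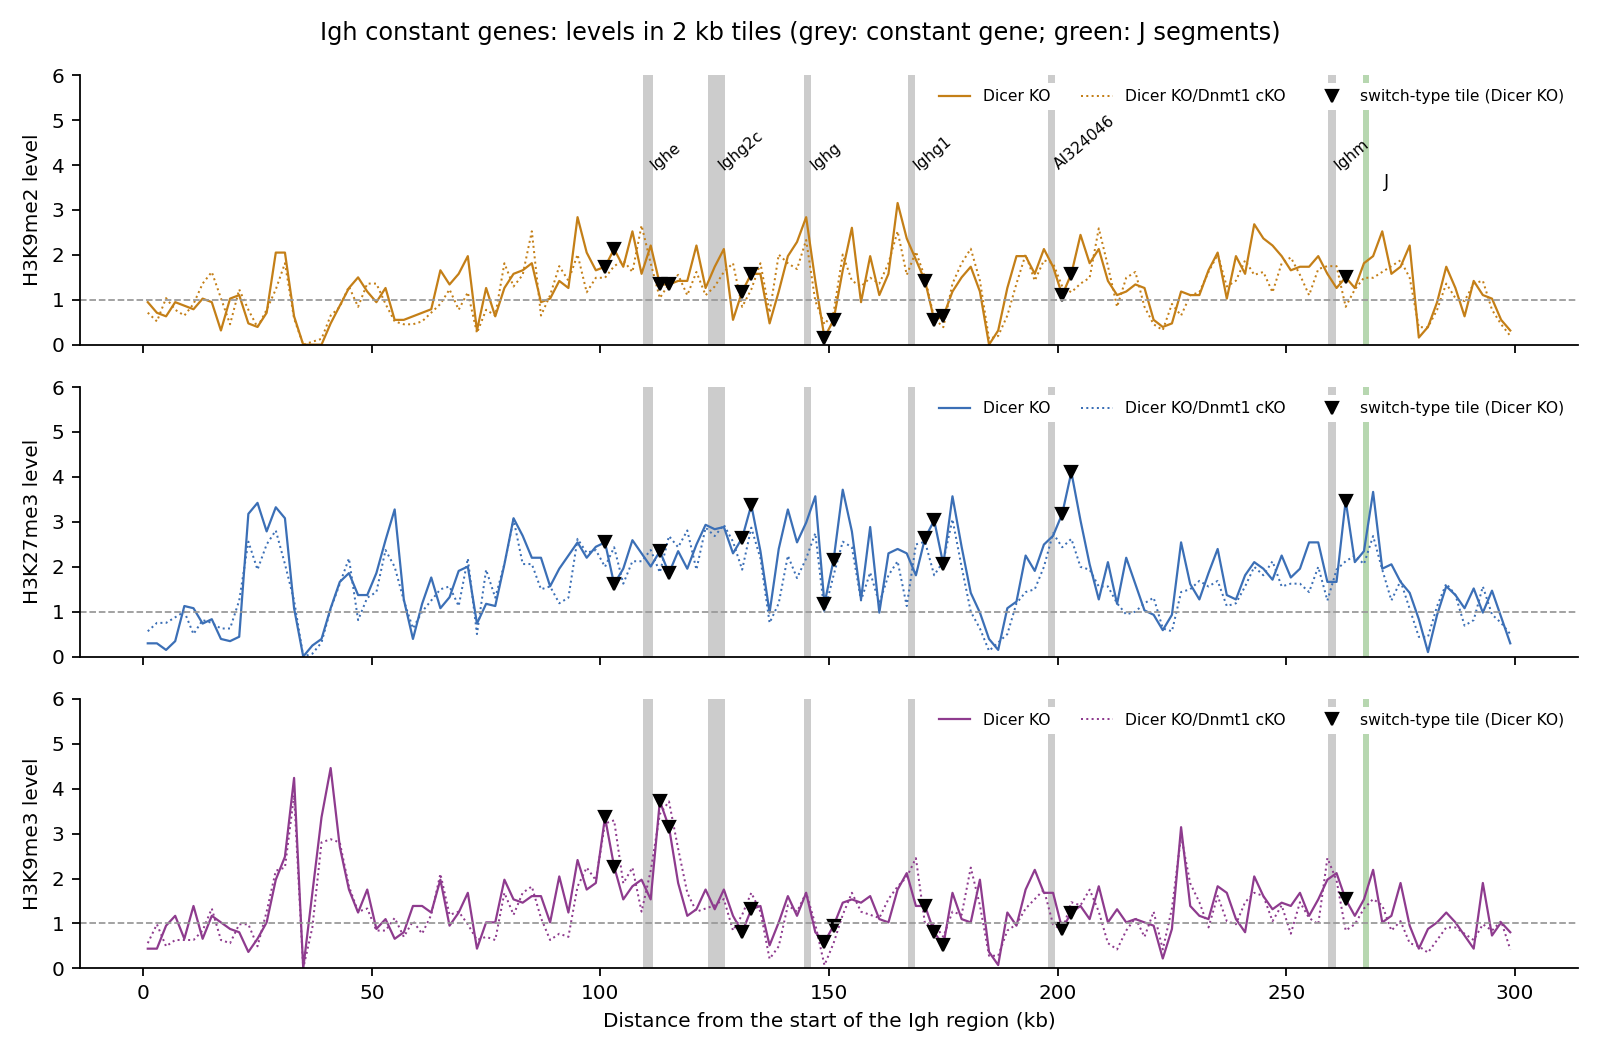
Levels of the 3 marks in 2 kb tiles over the first 300 kb of Igh against distance in kb, for Dicer KO (solid) and Dicer KO/Dnmt1 cKO (dotted), with constant genes in grey, J segments in green and switch-type tiles as triangles. H3K9me3 is high at the 4 switch-type tiles next to Ighe and beyond it (3.13 and 3.42 together) and near the genome mean at the other 10 (1.00 and 0.933), groups made after these values were seen.

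Single tiles were then counted as high at a level of at least 2 in both genotypes, a rule chosen after the values were seen. H3K9me2 was high in 19 tiles of the loci (0.415%), and in 0.817% of the genome's and 1.30% of the flanks' tiles. H3K27me3 was high in 57 (1.25%), and in 5.62% of the genome's and 9.76% of the flanks' tiles. H3K9me3 was high in 92 (2.01%), and in 1.61% of the genome's and 1.18% of the flanks' tiles. The loci thus held a smaller share of H3K27me3 tiles than the genome and their flanks, and, at this threshold, H3K9me3 tiles near the genome's share. In unique tiles the shares were 0.195%, 1.76% and 1.07% in the order H3K9me2, H3K27me3 and H3K9me3, beside 0.197%, 4.33% and 0.828% of the genome's and 0.0938%, 8.26% and 0.532% of the flanks' unique tiles, so H3K9me2 (2 tiles) was then above its flanks. At a level of at least 3, over all tiles, H3K9me3 was high in 0.437% of the loci's, 0.269% of the genome's and 0.18% of the flanks' tiles. In the same order the shares were 0.0437%, 0.944% and 2.06% for H3K27me3, and 0%, 0.0380% and 0% for H3K9me2.

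The first 300 kb of Igh, which are 3.28% of the tiles of the loci, held 39 of the 57 high H3K27me3 tiles (68.4%) and 11 of the 92 high H3K9me3 tiles. Of the 39, 23 lay in the stretch of the constant genes and switch repeats, and the others on both sides of it. On the side before the stretch the annotation lists no gene segment, only other genes. There a run of 3 tiles at chr12:114426001-114432000 began at Tmem121, which is not a receptor gene. An annotated gene was overlapped by 18 of the 57 H3K27me3 tiles (31.6%) and by 14.4% of all tiles of the loci. Outside Igh they included the tile of Igkc, the tile of Trbd2 and the Trbj2 cluster, the tile of Trbj1-2 to Trbj1-7, and tiles of Tcra/d J segments at Traj46 to Traj44 and at Traj38 and Traj37. Of the 92 H3K9me3 tiles 88 overlapped no gene (95.7%, and 85.6% of all tiles of the loci), 41 lay in Igk and 36 in Igh. A single tile was high in both marks, 1.75% of the H3K27me3 and 1.09% of the H3K9me3 tiles. These shares were near those of all tiles of the loci, 2.01% high for H3K9me3 and 1.25% high for H3K27me3. At these 92 tiles H3K9me3 averaged 2.97 and 2.71, with H3K9me2 at 0.778 and 0.782 and H3K27me3 at 0.920 and 0.932. The longest run was chr6:69066001-69078000 in Igk, 6 tiles with H3K9me3 at 3.25 and 2.69 and H3K9me2 at 0.407 and 0.604. Another run of 4 tiles lay at chr6:69796001-69804000, at 3.24 and 2.24. Of the 41 high H3K9me3 tiles of Igk, 2 were unique tiles.

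Between the genotypes the loci changed little. The log2 change, Dicer KO/Dnmt1 cKO over Dicer KO after scaling to library totals, was -0.05 (-0.07 to -0.03) for H3K9me2, -0.05 (-0.07 to -0.04) for H3K27me3 and -0.09 (-0.11 to -0.07) for H3K9me3 over the 5 loci. Of 15 pairs of locus and mark, 10 had an interval below 0, 1 above it and 4 across it. Of 30 pairs of flank and mark, 8 had one below 0, 9 above it and 13 across it. The falls were largest at Igl, at -0.18 (-0.26 to -0.11) for H3K27me3 and -0.20 (-0.28 to -0.11) for H3K9me3, and Igh fell by 0.09, 0.09 and 0.12 in the order H3K9me2, H3K27me3 and H3K9me3. Among the loci, Tcra/d H3K9me2 had the interval above 0, at 0.05 (0.00 to 0.09). In unique tiles it spanned 0, at 0.04 (-0.02 to 0.10), and of the 15 pairs 7 were below 0, 0 above it and 8 across it. Trimmed mean scaling also left 0 above 0, with 11 below it and 4 across it, and moved the H3K27me3 change of the 5 loci to -0.09 (-0.10 to -0.07). In unique tiles the change of the 5 loci together spanned 0 for H3K9me2, at -0.03 (-0.06 to 0.00), and was below 0 for H3K27me3, at -0.04 (-0.07 to -0.01), and H3K9me3, at -0.06 (-0.09 to -0.03). The middle 95% of 1 Mb stretches of the genome ranged over -0.10 to 0.22 for H3K9me2, -0.12 to 0.14 for H3K27me3 and -0.13 to 0.12 for H3K9me3. Of the 15 values, those of Igl for H3K27me3 and H3K9me3 were outside these ranges, and Igl is shorter than 1 Mb. The H3K27me3 fall was shared by the 1 Mb flank before Igl, at -0.17 (-0.20 to -0.13), also outside the range.

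Summed over all flanks, H3K9me2 moved in the other direction from the summed loci, but not at each locus. Over all flanks the change was 0.05 (0.03 to 0.06) for H3K9me2, -0.04 (-0.05 to -0.03) for H3K27me3 and 0.00 (-0.01 to 0.02) for H3K9me3. Locus minus flanks was -0.10 (-0.12 to -0.07) for H3K9me2, -0.01 (-0.03 to 0.01) for H3K27me3 and -0.09 (-0.12 to -0.07) for H3K9me3. By locus, H3K9me2 fell and its flanks rose at Igk and Igl. At Igh it fell while the change of both flanks together spanned 0, at 0.02 (-0.01 to 0.06), with the flank before it at 0.16 (0.11 to 0.21) and the flank after it at -0.07 (-0.11 to -0.02). At Tcrb the locus changed by 0.01 and the flanks by -0.03, and at Tcra/d both rose, by 0.05 and 0.13. Locus minus flanks for H3K9me2 was -0.14 at Igk, -0.11 at Igh, 0.04 at Tcrb (-0.02 to 0.11), -0.08 at Tcra/d and -0.17 at Igl. In the same order it was -0.03, -0.07, 0.02, -0.02 and -0.07 for H3K27me3, and -0.09, -0.15, -0.07, -0.07 and -0.18 for H3K9me3. For H3K27me3 only the interval of Igh left out 0, and that of Igl was -0.15 to 0.01. With 1 library per genotype the spread between replicates is unknown, so no such difference can be set against it.

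**Figure D5:**
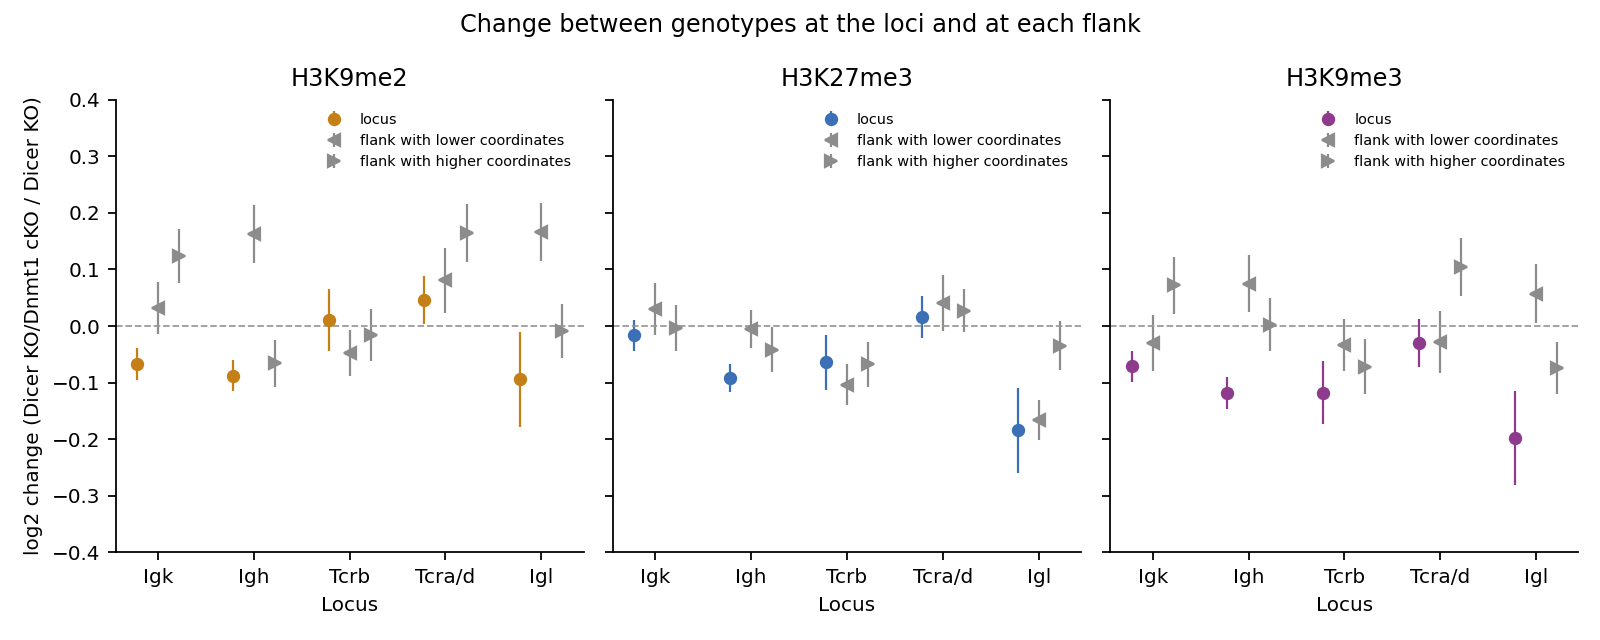
Log2 change of each mark between genotypes at each locus (coloured) and at each of its 2 flanks (grey triangles), with 95% counting intervals. All locus values lie between -0.20 and 0.05, and 10 of 15 intervals are below 0.

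Few single tiles were 2-fold apart between genotypes. For H3K9me2, 99 of the 3050 tiles that averaged 10 reads or more were higher in Dicer KO/Dnmt1 cKO (3.25%, genome 4.06%) and 130 lower (4.26%, genome 2.97%). For H3K27me3, 88 of 3253 were higher (2.71%, genome 3.09%) and 147 lower (4.52%, genome 2.90%). For H3K9me3, 100 of 3038 were higher (3.29%, genome 4.07%) and 133 lower (4.38%, genome 3.42%). At this minimum, tiles lower in Dicer KO/Dnmt1 cKO outnumbered those higher for each mark in the loci together, and in the genome the higher ones were more numerous for each mark, but the first did not hold at each locus and neither held in all settings. Tcra/d had 20 higher and 7 lower for H3K9me2 and 13 of each for H3K27me3, Tcrb 12 and 11 for H3K9me2, and Igk 38 and 33 for H3K9me3. With no minimum of reads H3K27me3 turned in the loci, at 5.36% higher and 4.48% lower, and H3K9me3 in the genome, at 4.21% higher and 4.44% lower. At a mean of at least 30 reads the genome had more lower than higher tiles for each mark, with 0.538% higher and 0.674% lower (H3K9me2), 0.307% and 1.04% (H3K27me3), and 0.266% and 0.968% (H3K9me3). Summed to 10 kb, at most 3 stretches of the loci were 2-fold apart in either direction for any mark, with 2 higher and 1 lower for H3K9me2 and for H3K9me3 and 2 higher and 3 lower for H3K27me3. The genome's shares at 10 kb were, higher then lower, 0.460% and 0.142% (H3K9me2), 0.904% and 0.135% (H3K27me3), and 0.123% and 0.168% (H3K9me3).

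By the rule for named genes, the largest changes lay in genes with few reads. Iglc2, a lambda constant gene, fell most in H3K27me3, by 0.83 on the log2 scale (interval -1.42 to -0.24), followed by Olfr1511, an olfactory receptor gene at the start of Tcra/d, at -0.68 (-1.19 to -0.17). Zfp386, a zinc finger gene at the end of Igh, rose most, at 0.75 (0.26 to 1.23), and Traj27 had 0.53 (-0.00 to 1.06). For H3K9me2 Dad1, a subunit of oligosaccharyltransferase that lies beside Trac, led with 0.54 (0.02 to 1.05), and Abhd4, its neighbour, had 0.34 (-0.14 to 0.82). The lowest H3K9me2 changes were at Ighg, at -0.37 (-0.92 to 0.19), and Ighg2c, at -0.35 (-0.86 to 0.15). For H3K9me3 Try5, a trypsin gene within Tcrb, fell by 0.70 (interval -1.20 to -0.20), Gm11143 in Igk had -0.33 (-0.78 to 0.12), and Ighg1 and Olfr1507 had 0.35 (-0.19 to 0.89) and 0.35 (-0.17 to 0.87). These are extremes picked from 21, 38 and 17 genes with at least 100 reads, and the intervals do not account for the picking.

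Genes elsewhere that build or use the receptors carried H3K27me3 at their starts in part. Among all 22367 gene starts, each taken as 3 tiles, 14.4% reached 2 times the genome mean in both genotypes for H3K27me3, 0.237% for H3K9me2 and 0.581% for H3K9me3. Of 10 B cell regulators and receptor partners 3 did so for H3K27me3, namely Pax5, which commits cells to the B lineage (5.90 and 4.74), Ikzf1 (3.60 and 2.50) and Cd79b, a signalling chain of the B cell receptor (2.56 and 2.41). Of 12 T cell genes 4 did, namely Bcl11b, which commits cells to the T lineage (6.87 and 4.89), Gata3 (3.97 and 3.01), Runx3 (2.41 and 2.83) and Zap70, the kinase of T cell receptor signalling (2.07 and 2.41). None of the 3 recombination genes did, with Rag1 at 1.91 and 1.37, Rag2 at 0.929 and 1.21, and Dntt at 1.78 and 1.81. None of 7 end joining genes did either, and their list stood at 0.465 and 0.454. No gene of these lists reached the threshold for H3K9me2 or H3K9me3.

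The labelled cell type was looked at through markers in the same way, although no RNA was measured here and a mark is not expression. For H3K27me3, 1 of 8 ESC markers (Esrrb, 2.59 and 2.35), 2 of 7 B cell markers (Pax5 and Cd79b) and 2 of 8 T cell markers (Bcl11b and Zap70) reached the threshold. Summed over each list, H3K27me3 was 0.715 and 0.665 at ESC markers, 1.93 and 1.68 at B cell markers and 1.89 and 1.83 at T cell markers. Single genes carried much of these sums. Without Esrrb the ESC list stood at 0.447 and 0.425, without Pax5 the B cell list at 1.27 and 1.17, and without Bcl11b the T cell list at 1.18 and 1.39. The median gene had 0.448 and 0.416, 1.87 and 1.48, and 1.22 and 1.17 in the same order of lists, beside 0.717 and 0.728 over all gene starts. Cd3d and Cd3g share their 3 tiles, and with each tile counted once the T cell list had 2.07 and 1.93. H3K9me2 was 0.401 and 0.402, 0.755 and 0.922, and 1.01 and 1.16 at the same lists, with median genes at 0.381 and 0.367, 0.578 and 0.798, and 1.06 and 1.12. The ESC marker Nanog had H3K9me3 at 2.46 and 1.17. At the start of Dnmt1, the gene deleted in Dicer KO/Dnmt1 cKO cells, H3K9me2 was 0.158 (0.0579 to 0.343) and 0.583, H3K27me3 0.277 and 0.312 and H3K9me3 0.561 and 0.725. At the start of Dicer1, disrupted in both genotypes, the values were 0.289 and 0.367, 0.391 and 0.374, and 0.390 and 0.351. The 2 starts together held 17 and 44 reads of H3K9me2, so these values rest on few reads.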

How the data were processed

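ChIP-seq of 3 histone marks (H3K9me2, H3K27me3, H3K9me3) was done on mouse ESCs of 2 genotypes, Dicer KO and Dicer KO/Dnmt1 cKO, with 1 library per mark and genotype. The antibodies came from Abcam (H3K9me2) and Active Motif (H3K27me3 and H3K9me3). Per the methods, chromatin was fixed with formaldehyde, libraries were made with a MicroPlex kit and sequenced as paired ends, and reads were trimmed with Trim Galore and mapped to NCBIM37 with Bowtie2 (the labels list Bowtie), with mapping quality under 20 discarded. Removal of duplicate reads is not stated for ChIP-seq. The deposited values are log2 ratios of observed over expected reads, which the authors computed in SeqMonk, and the table has tiles of 2 kb where the methods state 1 kb.

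Of 25 columns of values 6 match these samples, and the other 19 were not used. Whole reads per tile were recovered from the log2 steps of each column (tolerance 0.1 read), and tiles at the value of an empty tile (0.9 of a step) were set to 0. The depth per library is given with the results.

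Levels are reads per tile over the genome mean, and intervals are exact counting intervals at 95%. Unique tiles have at least 90% of 32-base words, taken every 20 bases, that occur once in NCBIM37, and their levels are relative to the genome's unique tiles. Gene coordinates are from GENCODE vM1, and names and classes from RefSeq for the 470 of 479 segments that matched it. Ighg and AI324046 were not matched and keep their names in the annotation. Genotypes were compared as Dicer KO/Dnmt1 cKO over Dicer KO after scaling to library totals, and tiles were called at 2-fold with a mean of at least 10 reads. No test between genotypes was made, since there is 1 library for each.

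The named genes are all constant genes, the 2 segments per locus and mark with the highest relative level over both genotypes among those with at least 60 reads, and the 2 genes per mark and direction with the largest change among those with at least 100 reads. The highest and lowest 100 kb window per locus and mark and the genes of the lymphoid, recombination and ESC lists could also be named. Members and lists were chosen with earlier results of these data known. The alternatives were 500 kb flanks, unique tiles, loci from first to last gene segment, median and trimmed mean scaling (trims of 30% and 5%), dropping the most covered 0.1% of tiles, a minimum of 30 reads, no minimum with a pseudocount of 1 read, and tiles summed to 10 kb. High tiles were also counted at a level of 3, and switch-type tiles at 20 or 40 copies of AGCT. Marker lists were also taken without the gene with most reads, and with each tile counted once. Python 3.11.15, numpy 2.4.6, pandas 2.3.3, scipy 1.17.1, numba 0.67.0 and matplotlib 3.10.9 were used.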

Additional observations from a re-analysis of the deposited data

How the results depend on the processing

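Under the alternatives 362 values were recomputed. Of these 202 moved by less than counting error, 132 moved by more and 28 were reversed, which counts a change of sign (or side of 1) only where the main interval left out no difference. Another 24 values crossed with a main interval that spans it, 7 of them genotype changes, 15 relative levels and 2 marker list levels. The cause was not tested. No paired analysis was possible because a genotype has just 1 library of any mark. The alternatives for high tiles, switch-type tiles and marker lists were chosen after seeing the data.

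Of the genotype changes, 144 of 162 values stayed within counting error. Dropping the most covered 0.1% of tiles, and median scaling, moved none of their 36 values each. In unique tiles the 5 loci gave -0.026 (H3K9me2, with an interval that spans 0) and -0.062 (H3K9me3), and the flanks -0.055 (H3K27me3) and 0.025 (H3K9me3). Trimmed mean scaling gave -0.089 for H3K27me3 over the 5 loci, -0.078 over all flanks and -0.0061 over the Tcra/d flanks, which changed sign. By locus and mark it left 0 of 15 intervals above 0 and 11 below, and median scaling 1 and 11. Median and trimmed mean scaling moved the median of all tiles by at most 0.04 (log2).

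In the comparison with the flanks 24 of 72 values were reversed and 36 moved without reversing. In unique tiles H3K9me2 turned to 0.32 and 0.17 at Igk (Dicer KO, then Dicer KO/Dnmt1 cKO), 0.30 and 0.18 at Igh, 0.59 and 0.48 at Tcra/d, and 0.26 and 0.18 over the 5 loci. H3K27me3 turned to 0.033 and 0.065 at Tcra/d and moved to -0.12 and -0.10 over the 5 loci. H3K9me3 turned in Dicer KO to 0.0076 at Tcrb, 0.40 at Tcra/d and 0.26 over the 5 loci, and in Dicer KO/Dnmt1 cKO to 0.14 at Igk, 0.23 at Igh, 0.30 at Tcra/d and 0.17 over the 5 loci. With 500 kb flanks Igh turned to 0.22 and 0.096 for H3K9me2, to 0.17 and 0.056 for H3K27me3, and to 0.21 for H3K9me3 in Dicer KO/Dnmt1 cKO. In Dicer KO, H3K9me2 at Tcra/d turned to 0.028 and H3K9me3 over the 5 loci to 0.052. Over the 5 loci H3K9me2 moved to -0.018 and -0.13, H3K27me3 to -0.27 and -0.29, and H3K9me3 in Dicer KO/Dnmt1 cKO to -0.036.

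The relative levels of the 5 loci without the 0.1% of tiles with most reads stood at 1.00 and 1.01 (H3K9me2), 0.899 and 0.912 (H3K27me3), and 1.11 and 1.08 (H3K9me3), and Igh H3K9me2 in Dicer KO/Dnmt1 cKO turned to 0.993. In unique tiles the 5 loci had 1.05 and 1.07 for H3K9me2 and 1.04 and 1.00 for H3K9me3. There H3K9me2 turned to 1.01 at Tcra/d in Dicer KO and to 0.991 at Igh in Dicer KO/Dnmt1 cKO.

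The shares of tiles at least 2-fold apart followed the minimum of reads, and 17 of their 18 values moved. At a mean of at least 30 reads, H3K9me2 had 0% higher and 0% lower, H3K27me3 0% and 1.31%, and H3K9me3 0% and 0.952%, with 25, 305 and 105 tiles tested. With no minimum and a pseudocount of 1 read, H3K9me2 had 4.72% and 6.43%, H3K27me3 5.36% higher, and H3K9me3 4.20% and 6.43%. In stretches of 10 kb they were 0.231% and 0.115%, 0.230% and 0.344%, and 0.229% and 0.115%, each from 1 to 3 stretches, beside 0.460% and 0.142%, 0.904% and 0.135%, and 0.123% and 0.168% in the genome.

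All 6 values for high tiles moved, and all 8 for switch-type tiles stayed within counting error. At a level of at least 3 the loci had 0 (H3K9me2), 2 (H3K27me3) and 20 (H3K9me3) high tiles, in place of 19, 57 and 92. Of 24 values for the marker lists 10 moved. Without the gene with most reads H3K27me3 moved at each list in both genotypes, to 0.447 and 0.425 (ESC markers), 1.27 and 1.17 (B cell markers), and 1.18 and 1.39 (T cell markers). H3K9me2 moved to 0.339 at ESC markers in Dicer KO/Dnmt1 cKO and to 0.605 and 0.773 at B cell markers. With each tile counted once, H3K27me3 at T cell markers moved to 2.07 in Dicer KO. Depth limits single tiles, since the median tile of the loci has 12 to 16 reads.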

Other observations

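The loci also hold 39 other protein-coding genes, among them trypsin genes within Tcrb and olfactory receptor genes at the start of Tcra/d. The 138 tiles that overlap such genes and no gene segment had H3K9me2 at 0.917 and 0.927 (Dicer KO, then Dicer KO/Dnmt1 cKO), H3K27me3 at 0.868 and 0.811, and H3K9me3 at 0.923 and 0.849. The 28 tiles of V pseudogenes had H3K9me2 at 1.21 (1.10 to 1.33) and 1.15 (1.05 to 1.25). In the 12 tiles of Igk V pseudogenes the H3K9me2 level was 1.43 and 1.25. Of these, 5 hold Igkv13-87, at 1.44 and 1.23 with 95.6% unique words. The unique tiles of Igk stood at 1.33 and 1.27 over the mean of all tiles of the genome. Whether unique sequence sets the level of the pseudogenes was not tested.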
